A study of Mus musculus with 6 samples.

Results

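The genes described here are the type 2 cytokine genes *Il4*, *Il13* and *Il5*, the genes *Rad50* and *Kif3a* that lie among and beside them on mouse chromosome 11, and *Gata3* on chromosome 2, the regulator of that locus. They were chosen by name and make up 6 of the 41195 genes in the tables. RNA sequencing (RNA-seq) was carried out on γδ thymocytes, T cells developing in the thymus with a γδ T cell receptor, in 3 libraries labelled *Rag1Cre-Nfatc1fl/fl* and 3 labelled *Nfatc1fl/fl*. All mice were of the C57/B6 background, young, and matched for age and sex, and both groups carried *Nfatc1* alleles with a loxP-flanked exon. In *Rag1Cre-Nfatc1fl/fl* mice, Cre made from the *Rag1* locus removes that exon at an early thymocyte stage, in every descendant of the thymocytes in which it acted and not in γδ cells alone. The *Nfatc1fl/fl* mice were the Cre-negative controls. The comparison addressed how γδ thymocytes differentiate without the transcription factor NFATc1. Nothing in the labels states that each library is a different animal, so the tests weigh differences against a spread among libraries that could be technical.

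In helper T cells the type 2 cytokine genes are switched on together. GATA3 opens the locus and binds its promoters and enhancers, STAT6 carries the signal of the IL-4 receptor to it, and NFAT proteins, which enter the nucleus after T cell receptor stimulation, bind the cytokine promoters and the enhancers around them. The introns of *Rad50* harbour the locus control region of the type 2 cytokine genes, whereas *Rad50* itself encodes a subunit of a DNA repair complex that most cells use. *Kif3a*, on the far side of *Il4*, encodes a subunit of a kinesin motor. IL-4 drives B cell class switching and type 2 helper differentiation, IL-13 acts on epithelium and smooth muscle, and IL-5 sustains eosinophils. Innate-like T cells of the thymus are known to transcribe *Il4* early.

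The promoters of the 3 cytokine genes are shown because *Il4* and *Il13* moved together in these libraries, whereas *Il5*, their neighbour, had no more than 1 read in any library. Each sequence runs from 250 bases before the transcription start to 50 bases after it, 300 bases in all, taken from RefSeq on build GRCm38.p6, the build of the deposited coordinates. Capitals mark every GGAAA on either strand (TTTCC where it lies on the other strand), the core recognised by NFAT proteins. *Il4* is at chr11:53618616-53618915, minus strand, *Il13* at chr11:53634653-53634952, minus strand, and *Il5* at chr11:53720544-53720843, plus strand. The windows of 5 of the 6 genes were found, and *Rad50* was not among them.
Il4: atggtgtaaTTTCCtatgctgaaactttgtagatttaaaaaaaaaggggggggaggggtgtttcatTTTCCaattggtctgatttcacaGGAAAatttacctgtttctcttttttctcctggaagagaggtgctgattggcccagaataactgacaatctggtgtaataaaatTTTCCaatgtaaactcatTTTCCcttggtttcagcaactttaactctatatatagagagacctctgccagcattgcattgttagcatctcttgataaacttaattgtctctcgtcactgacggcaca
Il13: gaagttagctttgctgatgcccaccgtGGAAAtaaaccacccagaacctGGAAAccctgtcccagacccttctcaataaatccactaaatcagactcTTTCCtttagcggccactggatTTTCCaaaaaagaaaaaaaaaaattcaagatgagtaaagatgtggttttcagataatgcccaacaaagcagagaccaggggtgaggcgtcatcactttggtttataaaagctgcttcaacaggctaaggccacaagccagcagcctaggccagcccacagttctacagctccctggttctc
Il5: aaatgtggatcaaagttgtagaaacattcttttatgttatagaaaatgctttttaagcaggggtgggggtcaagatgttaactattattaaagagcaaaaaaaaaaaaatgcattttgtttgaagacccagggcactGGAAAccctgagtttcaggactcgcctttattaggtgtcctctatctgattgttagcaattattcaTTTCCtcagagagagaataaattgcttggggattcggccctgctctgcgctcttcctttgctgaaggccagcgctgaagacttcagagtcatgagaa

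The *Il4* window held 5 matches to GGAAA, beginning at -241, -184, -161, -77 and -59 from the start site, and the *Il13* window held 4, at -223, -201, -153 and -131. The *Il5* window held 2, at -113 and -47, *Gata3* 2 and *Kif3a* 1. A second annotated *Il4* start, at chr11:53617289-53617588, had 1. Of 32851 promoter windows in the same table, 61.3% held at least 1 such match, 2.65% held 4 or more and 0.728% held 5 or more. A GATA-type word (AGATAA or AGATAG, or else TGATAA or TGATAG, on either strand) occurred once in each of the cytokine and *Gata3* windows and not in that of *Kif3a*, and 29.8% of all windows held at least 1. TGANTCA, the AP-1 word, was found in none of them and in 7.81% of all windows. These matches describe letters in the reference and were not tested for binding.

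The libraries held between 20734771 and 22638531 counted reads. Replicate 3 of *Rag1Cre-Nfatc1fl/fl* stood apart from its group, with a chi-square per degree of freedom of 71.3 and 64.0 against replicates 1 and 2, compared with 7.95 between those 2. Its genes with exons under 2000 bases read higher than the control mean (median log2 0.40) and those over 4000 bases lower (-0.20), so values are also given without it where that matters. Whole-gene counts of *Nfatc1* were 367, 437 and 310.0 CPM (counts scaled to library size) in *Rag1Cre-Nfatc1fl/fl* libraries and 197, 208 and 205 in *Nfatc1fl/fl* libraries (log2 fold change 0.87, SE 0.13, edgeR adjusted p = 0.0028). They were higher, not lower, in the libraries that carry the deletion label. A count over the whole gene includes reads outside the removed exon, so it does not check the deletion, and directions rest on the labels. Of 13185 genes tested with edgeR's quasi-likelihood test and Benjamini-Hochberg adjustment over all of them, 9.98% were called (adjusted p under 0.01 with a log2 fold change beyond 0.5 either way), 6.47% higher and 3.51% lower in *Rag1Cre-Nfatc1fl/fl*.

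Of the 6 genes, 5 had enough reads to be tested. *Il4* and *Il13* were called higher in *Rag1Cre-Nfatc1fl/fl* γδ thymocytes and none was called lower. *Il13* stood 24.8-fold and *Il4* 14.1-fold above the controls, the neighbours *Rad50* and *Kif3a* were within the spread between replicates, and *Gata3* was 0.785-fold the control level without being called. Lower levels of a transcript in bulk RNA cannot be told apart from fewer cells that make it, and the same holds for higher levels.

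*Il13* was counted in 440, 575 and 446 reads in *Rag1Cre-Nfatc1fl/fl* replicates 1 to 3, against 29, 22 and 13 reads in *Nfatc1fl/fl* replicates 1 to 3. Scaled to depth with TMM factors, these were 20.2, 26.2 and 23.5 CPM in *Rag1Cre-Nfatc1fl/fl* libraries and 1.25, 0.968 and 0.579 CPM in *Nfatc1fl/fl* libraries. The groups were far apart, and the lowest *Rag1Cre-Nfatc1fl/fl* library lay above every control by more than an order of magnitude. The log2 fold change was 4.63 (SE 0.24, 95% interval 4.07 to 5.19, edgeR adjusted p = 2.99e-05), that is 24.8-fold with an interval of 16.8 to 36.6. It ranked at place 57 of 13185 tested genes by log2 fold change, and without *Rag1Cre-Nfatc1fl/fl* replicate 3 it was 4.64.

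*Il4* had 306, 366 and 379 reads in *Rag1Cre-Nfatc1fl/fl* libraries and 36, 29 and 17 reads in *Nfatc1fl/fl* libraries. In CPM the *Rag1Cre-Nfatc1fl/fl* libraries held 14.0, 16.7 and 20.01 and the *Nfatc1fl/fl* libraries 1.55, 1.28 and 0.757. Again no *Rag1Cre-Nfatc1fl/fl* library came near a control. The log2 fold change was 3.81 (SE 0.26, 95% interval 3.21 to 4.42, edgeR adjusted p = 9.31e-05), a 14.1-fold difference with an interval of 9.25 to 21.4, at place 93 of the 13185. Without *Rag1Cre-Nfatc1fl/fl* replicate 3, its highest library, *Il4* still stood 3.69 above the controls on the log2 scale.

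**Figure D1:**
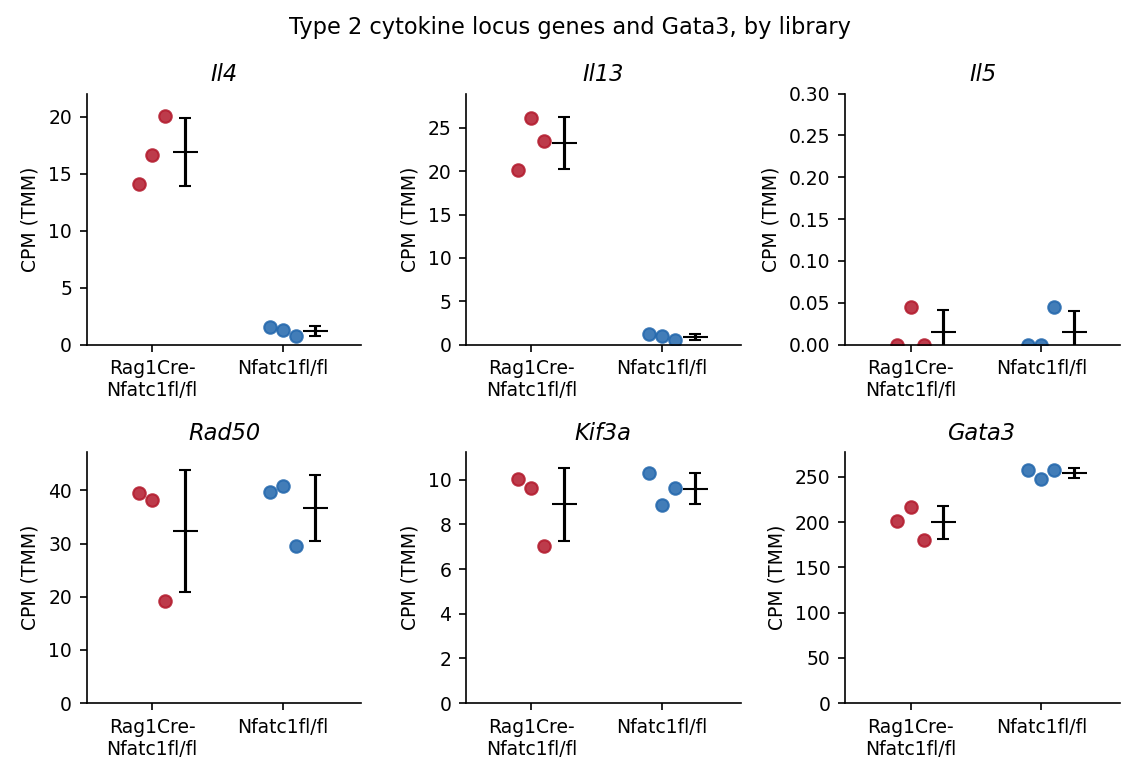
Levels of the 6 genes in CPM (TMM scaled; vertical axes start at 0 and differ between panels), with 1 point per library, *Rag1Cre-Nfatc1fl/fl* left and *Nfatc1fl/fl* right, replicates 1 to 3 from left to right, and the mean with its SD beside them (n = 3 each). The groups are apart for *Il4*, *Il13* and, by a small margin, *Gata3*, and they overlap for *Il5*, *Rad50* and *Kif3a*, with *Rag1Cre-Nfatc1fl/fl* replicate 3 lowest for *Rad50* and *Kif3a*.

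*Il5*, the third cytokine gene of the locus, had 0, 1 and 0 reads in *Rag1Cre-Nfatc1fl/fl* libraries and 0, 0 and 1 in *Nfatc1fl/fl* libraries. It therefore was not detectable at this depth in either group. In the 4 libraries without a read, a count of 0 allows up to 3 reads, counting error only. Per total counted reads, without the TMM factors used for the other CPM, this is 0.138 and 0.145 CPM in *Rag1Cre-Nfatc1fl/fl* replicates 1 and 3. In *Nfatc1fl/fl* replicates 1 and 2 it is 0.133 and 0.138 CPM. No fold change or *Il13* to *Il5* ratio can be given. The spacing along the chromosome is short: 12654 bases separate *Il4* (chr11:53602982-53618669, minus strand) from *Il13* (chr11:53631324-53634702, minus strand), 14816 bases lie between *Il13* and *Rad50* (chr11:53649519-53707319, minus strand), and 13474 between *Rad50* and *Il5* (chr11:53720794-53725106, plus strand).

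*Rad50* was read 862, 839 and 363 times in *Rag1Cre-Nfatc1fl/fl* libraries, against 924, 929 and 665 times in *Nfatc1fl/fl* libraries. The low value is replicate 3 of *Rag1Cre-Nfatc1fl/fl*, and the groups overlapped in CPM. Its log2 fold change was -0.18 (SE 0.26, 95% interval -0.79 to 0.42, adjusted p = 0.643), and 0.09 without that library. *Kif3a* (chr11:53567379-53601967, plus strand) had 219, 211 and 133 reads in *Rag1Cre-Nfatc1fl/fl* libraries and 239, 202 and 216 in *Nfatc1fl/fl* libraries. Here too replicate 3 of *Rag1Cre-Nfatc1fl/fl* was lowest and the groups overlapped. The log2 fold change was -0.11 (SE 0.17, 95% interval -0.49 to 0.27, adjusted p = 0.668), and 0.05 without replicate 3. These intervals leave out a difference of the size seen for *Il4* or *Il13* at either neighbour.

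*Gata3* (chr2:9857078-9890034, minus strand), the regulator that opens the locus, was counted in 4390, 4766 and 3420 reads in *Rag1Cre-Nfatc1fl/fl* libraries and 5985, 5637 and 5791 reads in *Nfatc1fl/fl* libraries. The CPM were 201, 217 and 181 in *Rag1Cre-Nfatc1fl/fl* libraries and 258, 248 and 258 in *Nfatc1fl/fl* libraries. Every *Rag1Cre-Nfatc1fl/fl* library lay below every control, an arrangement that 23.4% of all tested genes showed in this direction and 23.3% in the other. The log2 fold change was -0.35 (SE 0.09, 95% interval -0.56 to -0.14, edgeR adjusted p = 0.0298), which misses both the adjusted p and the fold required for a call. At an adjusted p under 0.05 with no fold limit *Gata3* passed, as did 10.1% of tested genes on the lower side and 13.2% on the higher. Without *Rag1Cre-Nfatc1fl/fl* replicate 3 the value was -0.27 (adjusted p = 0.00654), again short of the fold.

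Levels can be set between genes only per length, in TPM, which divides exon reads by exon length before scaling each library to the same sum. In *Rag1Cre-Nfatc1fl/fl* libraries *Gata3* was at 119 ± 23.1 TPM, *Il13* at 46.2 ± 7.32, *Il4* at 24.3 ± 3.62, *Rad50* at 14.1 ± 6.22 and *Kif3a* at 5.62 ± 1.84 (SD, n = 3 each). In *Nfatc1fl/fl* libraries the order below *Gata3* was another: *Gata3* at 167 ± 3.55 TPM, *Rad50* at 17.8 ± 3.19, *Kif3a* at 7.04 ± 0.37, *Il13* at 2.00 ± 0.624 and *Il4* at 1.07 ± 0.591. The cytokine genes thus stood above both neighbours in *Rag1Cre-Nfatc1fl/fl* cells and below both in the controls. The ranges of *Il13* and *Il4* did not overlap across *Rag1Cre-Nfatc1fl/fl* libraries (40.7 to 54.5 TPM against 20.7 to 28.0 TPM), but they did across *Nfatc1fl/fl* libraries (1.29 to 2.49 TPM against 0.391 to 1.45 TPM). Within each library of both groups *Il13* was above *Il4*, in controls at 2.49, 2.20 and 1.29 TPM against 1.45, 1.38 and 0.391. *Rad50* was above *Kif3a* within each *Rag1Cre-Nfatc1fl/fl* library, at 18.4, 16.8 and 6.94 TPM against 6.90, 6.45 and 3.51.

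The tables also split the reads of each gene by place. Exon-exon reads, a subset of the exon reads, cross a splice junction and come from spliced RNA, the other exon reads can come from spliced or unspliced RNA, and intron reads lie outside the spliced RNA. Exon reads of *Il4* numbered 213, 256 and 311 in *Rag1Cre-Nfatc1fl/fl* libraries and 16, 14 and 4 in *Nfatc1fl/fl* libraries (log2 fold change 4.65, SE 0.39, adjusted p = 0.000218), in a fit where 6.45% of genes were called higher. Its exon-exon reads were 155, 200 and 246 in *Rag1Cre-Nfatc1fl/fl* libraries and 12, 9 and 2 in *Nfatc1fl/fl* libraries (log2 fold change 4.81, SE 0.42, adjusted p = 0.000162), where the share was 5.42%. Both classes were apart between the groups, and by more than the total count of the gene. Both passed the low-count filter only through the *Rag1Cre-Nfatc1fl/fl* libraries, so at their control counts alone they would not have been tested. Intron reads of *Il4* were 93, 110 and 68 in *Rag1Cre-Nfatc1fl/fl* libraries and 20, 15 and 13 in *Nfatc1fl/fl* libraries (log2 fold change 2.69, SE 0.25, adjusted p = 7.17e-07). So reads from the introns of *Il4* were higher too, in a fit of 6158 genes in which 2.76% were called higher. Introns held 17.9% to 30.4% of the *Il4* reads in *Rag1Cre-Nfatc1fl/fl* libraries and 51.7% to 76.5% in *Nfatc1fl/fl* libraries, without overlap. The control shares rest on only 36, 29 and 17 reads. Over all genes the share of intron reads was lower in *Rag1Cre-Nfatc1fl/fl* libraries too, by far less (1.94% to 2.15% against 2.33% to 2.53%, also without overlap).

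*Il13* was read almost wholly from exons. Its exon-exon reads were 168, 219 and 172 in *Rag1Cre-Nfatc1fl/fl* libraries and 12, 3 and 7 in *Nfatc1fl/fl* libraries (log2 fold change 4.75, SE 0.33). They too passed the low-count filter only through the *Rag1Cre-Nfatc1fl/fl* libraries. The introns of *Il13* gave 2, 7 and 2 reads in *Rag1Cre-Nfatc1fl/fl* libraries and 2, 0 and 0 in *Nfatc1fl/fl* libraries, too few for a test. The ratio of *Il4* to *Il13* reads within a library was 0.695, 0.637 and 0.850 in *Rag1Cre-Nfatc1fl/fl* libraries and 1.24, 1.32 and 1.31 in *Nfatc1fl/fl* libraries. The groups were apart in total reads (difference of mean log2 ratios -0.84, two-sided exact permutation p = 0.1, the smallest that 3 against 3 libraries can give). In exon reads alone the ratio was 0.486, 0.451 and 0.700 in *Rag1Cre-Nfatc1fl/fl* libraries and 0.593, 0.636 and 0.308 in *Nfatc1fl/fl* libraries, and the difference turned to 0.13 (exact permutation p = 0.8). The ratio was thus lower in *Rag1Cre-Nfatc1fl/fl* libraries in total reads, which include the introns of *Il4*, and not in exon reads.

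Intron reads of *Kif3a* were few but unequal. There were 12, 11 and 19 in *Rag1Cre-Nfatc1fl/fl* libraries and 2, 5 and 2 in *Nfatc1fl/fl* libraries, with no overlap (log2 fold change 2.40, SE 0.57, adjusted p = 0.0115, not called). These intron reads passed the low-count filter only through the *Rag1Cre-Nfatc1fl/fl* libraries, so at their control counts alone they would not have been tested. They were called with no filter on low counts (edgeR adjusted p = 0.00387). With any 1 library left out they were not called (edgeR adjusted p 0.0252 to 0.0884). Exon reads of the same gene, 207, 200 and 114 in *Rag1Cre-Nfatc1fl/fl* libraries and 237, 197 and 214 in *Nfatc1fl/fl* libraries, overlapped (log2 fold change -0.21, adjusted p = 0.459). *Kif3a* ends 1014 bases from the nearer end of *Il4*, the genes run towards each other, and the library kit kept no strand, so reads from either strand there cannot be told apart. Where in the introns of *Kif3a* its intron reads lie is not known, and their source was not tested. *Rad50* intron reads were 34, 56 and 25 in *Rag1Cre-Nfatc1fl/fl* libraries and 22, 20 and 28 in *Nfatc1fl/fl* libraries (log2 fold change 0.91, SE 0.29, adjusted p = 0.0679), and they overlapped. *Gata3* intron reads, 96, 128 and 96 in *Rag1Cre-Nfatc1fl/fl* libraries and 123, 129 and 125 in *Nfatc1fl/fl* libraries, overlapped as well (log2 fold change -0.03, SE 0.19, adjusted p = 0.962), while its exon-exon reads gave -0.39 (SE 0.11, adjusted p = 0.0391).

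**Figure D2:**
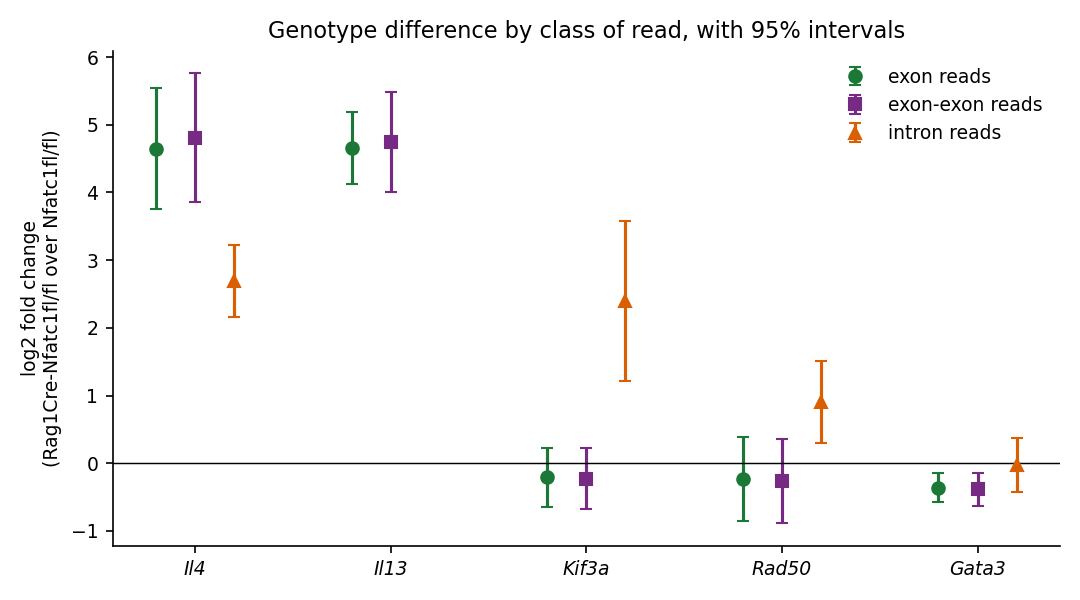
Log2 fold change of *Rag1Cre-Nfatc1fl/fl* over *Nfatc1fl/fl* for exon, exon-exon and intron reads of 5 genes, each fitted across all genes of its class with 95% intervals; *Il13* had too few intron reads to be fitted and *Il5* too few of any class. *Il4* lies above 0 in all classes, and *Gata3* lies below 0 in exon and exon-exon reads. *Kif3a* and *Rad50* lie above 0 in intron reads only (adjusted p = 0.0115 and 0.0679, not called here). *Kif3a* intron reads were called with no filter on low counts. Exon and exon-exon reads of *Il4*, exon-exon reads of *Il13* and intron reads of *Kif3a* passed that filter only through *Rag1Cre-Nfatc1fl/fl* libraries.

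The genes around the locus were read out of the same fit. Within 500000 bases of the *Il13* start the tables list 32 genes, of which 15 were tested, 9 had no read and 8 had reads but too few. *Il4*, *Il13* and *Sept8* were called higher, none was called lower and 12 were not called, and the median log2 fold change of the 11 tested genes other than the locus genes was -0.0065. Of those 11, *Sept8* alone was called, near the share of all tested genes called in either direction (9.98%). *Sept8*, which encodes a septin of the cytoskeleton and starts 112 kb from *Il13* beyond *Kif3a*, had 656, 615 and 467 reads in *Rag1Cre-Nfatc1fl/fl* libraries against 300, 338 and 321 in *Nfatc1fl/fl* libraries. Its groups were apart (log2 fold change 0.98, SE 0.11, adjusted p = 0.000947), though on TPM with a pseudocount of 0.1 or 1 the call was lost (adjusted p = 0.0462 and 0.0433). *Kif3a*, which lies between it and *Il4*, was not called. *Aff4*, a subunit of an elongation complex, had 2356, 2327 and 1066 reads in *Rag1Cre-Nfatc1fl/fl* libraries and 3423, 3132 and 3031 in *Nfatc1fl/fl* libraries, apart but not called (log2 fold change -0.63, SE 0.22, adjusted p = 0.0775), with replicate 3 of *Rag1Cre-Nfatc1fl/fl* far below the rest. The other tested genes, from *Hspa4* to *P4ha2*, lay between -0.80 and 0.38, overlapped between the groups and were not called.

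**Figure D3:**
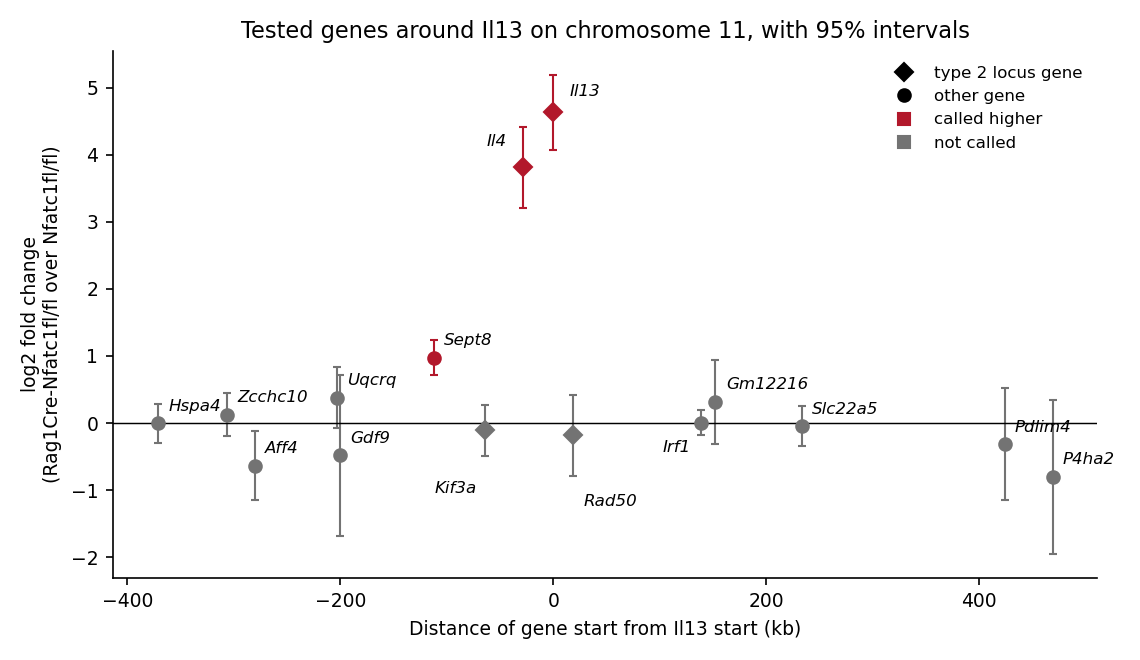
Log2 fold change of *Rag1Cre-Nfatc1fl/fl* over *Nfatc1fl/fl* with its 95% interval, against the distance of each gene's start from that of *Il13* in kb, for the 15 tested genes of the chromosome 11 neighbourhood. *Il4* and *Il13* stand at 3.81 and 4.63, *Sept8* at 0.98, and the others, *Rad50* and *Kif3a* among them, were not called.

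The lists that follow are to be read against the 6.47% of all tested genes called higher and the 3.51% called lower. Of 25 tested regulators that activate the type 2 locus, 4 were higher, 2 lower and 19 not called, with a median of -0.16 against -0.0069 over all tested genes. *Zbtb7b*, which encodes ThPOK and directs helper-type T cells, had 85.2, 106 and 88.2 CPM in *Rag1Cre-Nfatc1fl/fl* libraries and 7.49, 11.7 and 6.06 in *Nfatc1fl/fl* libraries (log2 fold change 3.46, SE 0.23, adjusted p = 9.25e-05). *Zbtb16*, encoding PLZF, the factor of innate-like T cells, had 123, 166 and 97.0 CPM in *Rag1Cre-Nfatc1fl/fl* libraries and 18.6, 24.8 and 14.2 in *Nfatc1fl/fl* libraries (2.75, SE 0.26, adjusted p = 0.000366). Both were apart by several fold. *Irf4*, a partner of NFAT proteins at cytokine promoters, rose by 1.35 (SE 0.13, adjusted p = 0.000486), and *Egr2*, an early target of T cell receptor signalling, by 1.18 (SE 0.14, adjusted p = 0.00106). *Tcf7*, encoding TCF-1, which acts upstream of *Gata3*, fell by 0.69 (adjusted p = 0.00265) and *Gfi1*, which favours growth of type 2 helper cells, by 0.53 (adjusted p = 0.00472). Not called were the signal carrier *Stat6* (log2 fold change -0.27, adjusted p = 0.119), *Maf*, which transactivates *Il4* (-0.04, adjusted p = 0.851), and *Junb*, which pairs with it (0.50, adjusted p = 0.0214). With 1 library left out, *Egr2* missed its call without *Nfatc1fl/fl* replicate 1 (adjusted p = 0.01002), *Tcf7* without any 1 control or *Rag1Cre-Nfatc1fl/fl* replicate 2 (adjusted p up to 0.0197), and *Gfi1* without any 1 control or *Rag1Cre-Nfatc1fl/fl* replicate 1 or 2 (up to 0.0302). On TPM, *Irf4*, *Egr2* and *Tcf7* lost their calls under both pseudocounts (adjusted p up to 0.0213, 0.0217 and 0.0284).

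Of 18 tested factors that restrain the locus, 2 were higher, 3 lower and 13 not called, with a median of -0.26. *Tbx21*, encoding T-bet, which opposes GATA3, had 20.6, 33.1 and 23.9 CPM in *Rag1Cre-Nfatc1fl/fl* libraries and 10.1, 11.4 and 7.88 in *Nfatc1fl/fl* libraries (1.40, SE 0.21, adjusted p = 0.00285). *Ndfip1*, an adaptor of the ligase ITCH, rose by 0.85 (adjusted p = 0.00577). *Sox4*, which binds GATA3 and blocks its contact with DNA, had 265, 203 and 192 CPM in *Rag1Cre-Nfatc1fl/fl* libraries against 547, 545 and 487 in *Nfatc1fl/fl* libraries, without overlap (-1.26, SE 0.13, adjusted p = 0.000696). *Runx3*, which silences *Il4* in type 1 cells, and *Ezh2*, a histone methyltransferase, fell by 0.53 and 0.55 (adjusted p = 0.00835 and 0.00869). Leaving out 1 library ended the call of *Runx3* whichever of the 6 it was (adjusted p up to 0.0472), of *Ezh2* for any control and *Rag1Cre-Nfatc1fl/fl* replicates 2 and 3 (up to 0.0469), of *Ndfip1* for any control and *Rag1Cre-Nfatc1fl/fl* replicate 2 (up to 0.0335) and of *Tbx21* for *Nfatc1fl/fl* replicates 1 and 3 (up to 0.0185). On TPM, *Tbx21*, *Runx3* and *Ezh2* lost their calls under both pseudocounts (*Tbx21* up to 0.0333, *Runx3* up to 0.0509) and *Sox4* under a pseudocount of 0.1 (0.0109). *Runx3* and *Ezh2* also lost theirs with the exon length trend removed, and *Runx3* with library size alone.

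Among receptors and kinases through which type 2 cytokines and their costimulators act, 5 of 19 tested were higher, 2 lower and 12 not called, with a median of 0.38. *Icos*, a costimulatory receptor that supports IL-4 production, had 542, 634 and 558 CPM in *Rag1Cre-Nfatc1fl/fl* libraries and 43.3, 58.0 and 44.7 in *Nfatc1fl/fl* libraries (3.57, SE 0.14, adjusted p = 1.45e-05). The costimulator *Cd28* rose by 0.97 (adjusted p = 0.000599), the IL-7 receptor gene *Il7r* by 0.98 (adjusted p = 0.00237), *Tnfrsf4*, encoding OX40, by 2.40 at levels under 2 CPM (adjusted p = 0.00473) and the common γ chain *Il2rg* by 0.52 (adjusted p = 0.00561). *Tnfrsf4* passed the low-count filter only through the *Rag1Cre-Nfatc1fl/fl* libraries, so at its control counts alone it would not have been tested. *Il4ra*, the receptor subunit shared by IL-4 and IL-13, had 33.9, 29.9 and 39.0 CPM in *Rag1Cre-Nfatc1fl/fl* libraries and 51.7, 53.8 and 56.1 in *Nfatc1fl/fl* libraries. It was lower in every *Rag1Cre-Nfatc1fl/fl* library (-0.65, SE 0.11, adjusted p = 0.00529), as was *Il2ra*, the inducible IL-2 receptor chain (-1.19, SE 0.17, adjusted p = 0.00254). The ligand genes *Il4* and *Il13* and their shared receptor gene thus moved in opposite directions. The calls of *Il4ra*, *Il2rg* and *Tnfrsf4* were lost without any 1 control or *Rag1Cre-Nfatc1fl/fl* replicate 1 or 2 (adjusted p up to 0.0302, 0.0373 and 0.0287), that of *Il7r* without any 1 control or *Rag1Cre-Nfatc1fl/fl* replicate 2 (up to 0.0184) and that of *Il2ra* without *Nfatc1fl/fl* replicate 1 or 3 or *Rag1Cre-Nfatc1fl/fl* replicate 2 (up to 0.0169). On TPM, *Cd28*, *Il7r*, *Il2ra* and *Il2rg* lost their calls under both pseudocounts (adjusted p up to 0.0267, 0.0685, 0.0276 and 0.144) and *Tnfrsf4* under a pseudocount of 0.1. *Il2rg* also lost its call with unique reads, with library size alone and with the exon length trend removed, the last of which ended that of *Il4ra* too.

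Of 18 other helper cell cytokine genes listed, 17 were in the tables and 8 were tested: 3 were higher, none lower and 5 not called, with a median of 1.04. *Csf1*, encoding the macrophage growth factor, had 24.3, 32.3 and 20.2 CPM in *Rag1Cre-Nfatc1fl/fl* libraries and 1.42, 1.14 and 0.623 in *Nfatc1fl/fl* libraries, a difference close to that of *Il13* (4.58, SE 0.29, adjusted p = 6.57e-05). *Lif* rose by 1.73 (adjusted p = 0.00604) and *Tnfsf11*, encoding RANKL, by 0.86 (adjusted p = 0.00272). *Il3*, *Il9*, *Il10* and *Il24* had no read in any library. *Ifng*, the type 1 cytokine gene, stood at 0.826, 1.23 and 0.528 CPM in *Rag1Cre-Nfatc1fl/fl* libraries and 0.775, 1.19 and 0.801 in *Nfatc1fl/fl* libraries (log2 fold change -0.09, SE 0.39, adjusted p = 0.889). Of 16 tested genes induced by IL-4 or tied to type 2 helper cells, 4 were higher, 2 lower and 10 not called, with a median of 0.10. The chemokine receptor *Ccr4* rose by 1.29 (adjusted p = 0.000499), *Rnf128*, an E3 ligase, by 3.51 (adjusted p = 0.00165) and *Epas1*, a hypoxia factor, by 1.95 (adjusted p = 0.00233). *Socs3*, a feedback inhibitor of cytokine signalling, fell by 0.60 (adjusted p = 0.00593). *Dusp6* and *Cd200r1* were called as well, with log2 fold changes of -0.80 and 1.08. Calls were lost without any 1 control for *Epas1* (adjusted p up to 0.0122), without any 1 control or *Rag1Cre-Nfatc1fl/fl* replicate 2 for *Tnfsf11* and *Socs3* (up to 0.0192 and 0.0365), without any 1 control or *Rag1Cre-Nfatc1fl/fl* replicate 1 or 2 for *Lif*, *Dusp6* and *Cd200r1* (up to 0.0322, 0.0285 and 0.0365), and without *Nfatc1fl/fl* replicate 3 for *Rnf128* (0.0122). On TPM, *Ccr4*, *Epas1*, *Rnf128*, *Lif*, *Socs3* and *Cd200r1* lost their calls under both pseudocounts (adjusted p up to 0.0179, 0.0286 and 0.0134 for *Ccr4*, *Epas1* and *Rnf128*), and *Cd200r1* in exon reads as well.

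**Figure D4:**
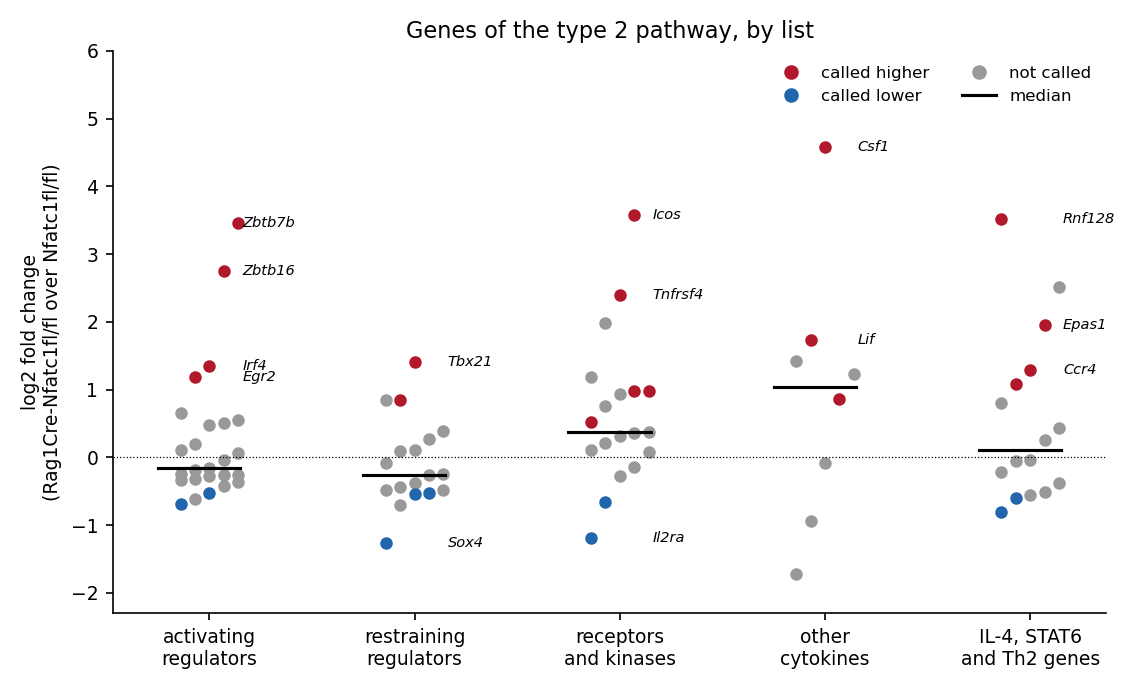
Log2 fold change of *Rag1Cre-Nfatc1fl/fl* over *Nfatc1fl/fl* for the tested genes of 5 lists around the type 2 locus, 1 point per gene, red for called higher, blue for called lower and grey for not called, with a bar at each list's median. Called genes past 1.1 in size are named, and medians lie between -0.26 and 1.04.

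The genes whose profiles over the 6 libraries were most like those of the cytokine genes were found by the root-mean-square difference of centred log2 CPM, among 9472 genes averaging 5 CPM or more. For *Il13* they were *Arhgap24* (0.148), *Csf1* (0.174), *App* (0.179), *Aqp9* (0.239) and *Nos1* (0.245). For *Il4* they were *Bcl2a1b* (0.123), *Samd3* (0.171), *Hey1* (0.230), *Bcl2a1d* (0.260) and *Stc2* (0.275), of which *Bcl2a1b* and *Bcl2a1d* are near-identical copies whose reads may be shared between them. For *Gata3* they were *Gstcd* (0.0214), *Rreb1* (0.0322), *Cbl* (0.0379), *Atg12* (0.0379) and *Fam98b* (0.0408). These lists describe likeness in 2 groups of 3 libraries, where any gene with a similar fold will rank high.

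Other cells of the thymus can transcribe *Il4* and *Il13*, so their markers were read in the same libraries. Markers listed for γδ T cells summed to 3025 to 3104 CPM in *Rag1Cre-Nfatc1fl/fl* libraries and 3097 to 3286 in *Nfatc1fl/fl* libraries. That sum includes *Cd3d*, *Cd3e*, *Cd3g* and *Cd247*, which other T cells express too. Of the 8 genes, the receptor constant genes *Trdc* and *Tcrg-C1* were called lower (log2 fold changes -0.80 and -0.65). *Tcrg-C2* was lower in every *Rag1Cre-Nfatc1fl/fl* library but not called (-0.33, edgeR adjusted p = 0.0232). *Tcrg-C4* overlapped between the groups (0.25, adjusted p = 0.146). Of 11 mast cell and basophil markers only *Kit* and *Cpa3*, which early thymocytes also express, were tested (summed list 128 to 162 CPM in *Rag1Cre-Nfatc1fl/fl* libraries, 229 to 243 in *Nfatc1fl/fl* libraries), and *Fcer1a*, *Mcpt4*, *Tpsab1* and *Tpsb2* had no read. *Prss34* had 0, 4 and 5 reads in *Rag1Cre-Nfatc1fl/fl* libraries and none in *Nfatc1fl/fl* libraries, *Mcpt8* and *Cma1* 2 each and *Ms4a2* 1, all in *Rag1Cre-Nfatc1fl/fl* replicate 3, and *Gata2* 2 reads, both in *Nfatc1fl/fl* libraries. The eosinophil list had 8 matched markers, with 1 tested and none called, and their sum was 8.22, 5.97 and 38.2 CPM in *Rag1Cre-Nfatc1fl/fl* libraries and 2.37, 0.660 and 0.223 in *Nfatc1fl/fl* libraries. Most of that sum, in every library but *Nfatc1fl/fl* replicate 3, was *Ear2*, the tested gene. It had 6.70, 3.78 and 24.2 CPM against 2.07, 0.572 and 0.0890 (log2 fold change 3.65, edgeR adjusted p = 0.0274, not called). Its groups were apart on the higher side, as were those of 23.3% of all tested genes. *Ear2* passed the low-count filter only through the *Rag1Cre-Nfatc1fl/fl* libraries, so at its control counts alone it would not have been tested. *Prg2*, the eosinophil major basic protein gene, had 0.275, 1.14 and 7.81 CPM in *Rag1Cre-Nfatc1fl/fl* libraries and 0, 0 and 0.0445 in *Nfatc1fl/fl* libraries. *Epx*, *Prg3* and *Ear1* had no read in *Rag1Cre-Nfatc1fl/fl* replicate 1 or any control. *Il5ra* had 1 read in *Rag1Cre-Nfatc1fl/fl* libraries and 3 in controls. Eosinophil markers thus summed higher in every *Rag1Cre-Nfatc1fl/fl* library than in any control and were highest in replicate 3 of *Rag1Cre-Nfatc1fl/fl*. That library was also the highest for *Il4* and was between the others of its group for *Il13*. Without it the eosinophil sums of the *Rag1Cre-Nfatc1fl/fl* libraries, 8.22 and 5.97 CPM, were still above every control, and the log2 differences of *Il4* and *Il13* were 3.69 and 4.64.

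Markers of type 2 innate lymphoid cells summed to 48.8 to 67.0 CPM in *Rag1Cre-Nfatc1fl/fl* libraries and 37.8 to 40.1 in *Nfatc1fl/fl* libraries. Most of that sum was *Il17rb*, at 38.2, 49.9 and 35.1 CPM against 32.4, 31.2 and 31.1 (log2 fold change 0.38, edgeR adjusted p = 0.0785, not called). Of 7 tested, 2 were called higher, *Klrg1* and *Calca*, both under 2 CPM. Both passed the low-count filter only through the *Rag1Cre-Nfatc1fl/fl* libraries, so at their control counts alone they would not have been tested. *Il1rl1*, the receptor of IL-33 that marks these cells, was at 1.74, 2.09 and 1.003 CPM in *Rag1Cre-Nfatc1fl/fl* libraries and 0.603, 0.528 and 0.0890 in *Nfatc1fl/fl* libraries (1.98, SE 0.56, adjusted p = 0.0389, not called). It too passed the low-count filter only through the *Rag1Cre-Nfatc1fl/fl* libraries. Macrophage markers summed to 88.4, 56.5 and 299.5 CPM in *Rag1Cre-Nfatc1fl/fl* libraries and 96.1, 31.8 and 22.2 in *Nfatc1fl/fl* libraries, with none of 8 tested called. Within each group this sum ordered the libraries as the eosinophil sum did, and which cells made *Ear2* was not tested. Of the B cell markers, *Ighm* was at 109, 96.6 and 110.2 CPM in *Rag1Cre-Nfatc1fl/fl* libraries and 194, 200.3 and 203 in *Nfatc1fl/fl* libraries. *Ighm* and *Cd79b* were both called lower, while *Pax5*, the factor that defines the lineage, had 1 read in all 6 libraries together. Markers of αβ T cells and double-positive thymocytes summed to 1145 to 1927 CPM in *Rag1Cre-Nfatc1fl/fl* libraries and 1615 to 1628 in *Nfatc1fl/fl* libraries, with none of 9 called. *Trac*, the constant gene of the TCR α chain, was at 45.2, 43.2 and 42.6 CPM in *Rag1Cre-Nfatc1fl/fl* libraries and 29.2, 33.2 and 32.2 in *Nfatc1fl/fl* libraries, without overlap, and missed the call by the fold alone (1.38-fold, adjusted p = 0.00777). *Dntt* went the other way without overlap, at 170, 115 and 231 CPM against 247, 269 and 289 (log2 fold change -0.64, edgeR adjusted p = 0.0733, not called). The remaining genes of that list, *Trbc1* and *Trbc2* among them, overlapped between the groups. The part of mast cells, basophils, eosinophils and innate lymphoid cells in the *Il4* and *Il13* differences was not tested.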

How the data were processed

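Poly(A) RNA-seq of γδ thymocytes enriched with a magnetic kit was measured in 6 libraries, grouped and numbered by their labels. Per the study's methods, reads were trimmed (cutadapt), aligned to GRCm38 (STAR), counted (featureCounts) and tested (DESeq2) by the authors. The deposited tables hold whole-number read counts per gene (total, unique, exon, exon-exon and intron) in a layout that is not featureCounts', and which program produced it is not stated in the sources read here. TPM was recomputed from deposited exon counts and exon lengths. Their own TPM and RPKM columns were not used.

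The main test was edgeR 4.0.16 under R 4.3.3 on total gene reads (TMM, filterByExpr, glmQLFit with glmQLFTest, genotype alone in the model, Benjamini-Hochberg across the genes tested), with the study's thresholds, an adjusted p of 0.01 and an absolute log2 fold change of 0.5. Each read class was fitted in the same way. The step was tested on simulated counts. Total counts per library were 20734771 to 22638531, and at least 99.7% of the reads of each of the 6 genes were unique. Intervals from the fit cover the spread between libraries, and floors cover counting error.

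The genes and lists were chosen with earlier results of these data known. Named were the 6 genes, the tested genes within 500000 bases of the *Il13* start, up to 4 called genes of each list by adjusted p, the 5 genes most alike in profile to *Il4*, *Il13* and *Gata3*, and defining markers. *Stat6*, *Maf*, *Junb*, *Ifng* and the called list genes beyond 4 were added after their values were seen. Of the markers, *Siglecf* and *Areg* were not matched and are not analysed here. Some listed markers are not reported here. Alternatives were RLE and library-size scaling, no filter, DESeq2 1.42.0, limma-voom (limma 3.58.1), each library left out, a replicate block, unique or exon reads, TPM with a pseudocount of 1 or 0.1, no receptor segments and looser thresholds. A fit with the exon length trend removed was added after seeing the data. Figures used matplotlib 3.10.9 in Python 3.11.15.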

Additional observations from a re-analysis of the deposited data

How the results depend on the processing

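*Il4* and *Il13* kept their direction and call under all 20 alternatives, with log2 fold changes of 3.58 to 4.65 and 3.99 to 4.90; leaving out 1 library gave 3.58 to 4.04 and 4.39 to 4.90. *Gata3* stayed below 0 under all 20 (-0.51 to -0.27, adjusted p 0.00654 to 0.115) and passed only at an adjusted p under 0.05 with no fold limit (-0.35), which made 1 of the 6 genes lower in place of 0. Without *Rag1Cre-Nfatc1fl/fl* replicate 3, *Rad50* turned to 0.092 in total reads, 0.051 in exon reads and 0.026 in exon-exon reads, and *Kif3a* to 0.045. With 1 library left out *Rad50* spanned -0.35 to 0.09 in total reads, -0.41 to 0.051 in exon reads and -0.48 to 0.026 in exon-exon reads, and *Kif3a* -0.20 to 0.05 in total reads. Intron reads of *Gata3* spanned -0.10 to 0.047 with 1 library left out, with 0.018 without *Nfatc1fl/fl* replicate 2. *Kif3a* intron reads were called with no filter (2.38, adjusted p = 0.00387) and were not called with any 1 library left out (edgeR adjusted p 0.0252 to 0.0884). The *Il4* to *Il13* ratio turned to 0.13 in exon reads; with 1 library left out it was -0.95 to -0.75. *Maf* had 0.092 with the exon length trend removed (0.095 with the replicate block too) and -0.11 to 0.070 with 1 library left out. The causes were not tested.

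Over all lists, 18 genes were higher and 9 lower. With 1 library left out the counts were 8 to 20 higher and 1 to 10 lower, in fits with fewer samples. TPM with a pseudocount of 0.1 gave 6 and 3, and with 1 it gave 7 and 4. At an adjusted p under 0.05, 28 were higher, where 13.2% of all tested genes were. Of the list genes, *Zbtb7b*, *Zbtb16*, *Icos* and *Csf1* kept their call under all 20 alternatives. Scaling by library size alone moved the median of all genes to -0.11, and TPM moved it to -0.15 and -0.12. Over all genes, 853 higher and 463 lower became 351 to 1739 and 100 to 1334. Without *Rag1Cre-Nfatc1fl/fl* replicate 3 *Sept8* was 1.06.

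Replicate numbers were not taken as pairs, since deviations of same-numbered libraries correlated at 0.026, 0.183 and 0.005, and *Rag1Cre-Nfatc1fl/fl* replicate 3 correlated best with *Nfatc1fl/fl* replicate 1 (0.094). With the replicate block *Il4* was 3.81, *Il13* 4.64, *Gata3* -0.35, *Rad50* -0.24 and *Kif3a* -0.12, and the lists gave 16 higher and 6 lower. *Kif3a* intron reads (2.38, adjusted p = 0.00801) were then called. Counts limit what can be said of *Il5*, of *Il13* introns and of markers under 1 CPM.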
